A study of Homo sapiens with 6 samples.

Results

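The genes of the urea cycle and of hepatic amino acid metabolism were examined in sorafenib-resistant hepatocellular carcinoma (HCC) cells treated with fostamatinib or with DMSO. The set was a list of 45 enzyme genes chosen by name, with no measured value in the rule. Earlier results of these data were known when the list was made, so the choice was not independent of them. Of the 45 genes, 34 were found by symbol among the 16305 genes of the processed files. The cells, written Huh7SR in the labels and called Huh7-R here, are a pool derived from the human HCC cell line Huh7 by long exposure to sorafenib, so every sample of both groups carries the acquired resistance and parental Huh7 cells are no part of the comparison. One group of 3 samples received fostamatinib, the prodrug of an inhibitor of spleen tyrosine kinase, at 2 µM for 24 h. The other group of 3 samples received DMSO, the solvent of the drug, for the same 24 h, and its labels give 2 µM as well. Treatments were applied in triplicate, but no source used here says whether the 3 samples of a group came from separate cultures, so p-values may measure only technical spread. RNA came from whole cultures of a single line, in which fewer expressing cells and less RNA per cell cannot be told apart.

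The urea cycle of the liver turns toxic ammonia into urea, which the kidney excretes. Its nitrogen comes from glutamate dehydrogenase and the aminotransferases, which collect the amino groups of many amino acids, while dedicated enzymes break down the carbon skeletons of tyrosine, tryptophan, histidine, lysine and the branched-chain amino acids. Most of these catabolic enzymes mark the mature hepatocyte and are often reduced in HCC. Enzymes that make proline, aspartate and their precursors serve growing cells and are found in most tumour lines. The list also counts CTH and CBS, which make cysteine, as biosynthetic.

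RNA was sequenced from poly(A)-selected libraries, and each deposited value is a log2 CPM, the logarithm of a gene's reads relative to the library size, which the authors scaled by the TMM method (trimmed mean of M-values). Levels below are given as CPM on the linear scale, one value for each of the 3 samples of a group in the order of their replicate numbers, and differences are log2 fold changes of fostamatinib over DMSO. The 6 libraries held 13303451 to 15272737 reads on listed genes, and reads of mitochondrial genes took 6.15% to 6.67% of the DMSO libraries against 8.16% to 8.40% of the fostamatinib libraries. All 8 hepatocyte markers examined (ALB, APOA1, APOB, TTR, SERPINA1, TF, FGB and HNF4A) were detected, and all 8 rose after fostamatinib (23.3% of all genes did). Their summed level was 3178 to 3376 CPM in DMSO and 4524 to 4849 CPM in fostamatinib samples. Of the leukocyte markers PTPRC, CD68 and CD3E had no row, and LYZ, the 1 listed gene of 4, was at 9.34 to 10.8 CPM in DMSO and 9.34 to 11.2 CPM in fostamatinib. PECAM1, the 1 listed of 3 endothelial markers (VWF and CDH5 had no row), was at 6.13 to 6.96 CPM in DMSO and 8.76 to 9.93 CPM in fostamatinib. The 3 listed of 4 stromal markers (ACTA2 had no row) summed to 8.62 to 9.39 CPM in DMSO and 12.1 to 12.6 CPM in fostamatinib. The 3 biliary markers KRT19, KRT7 and SOX9 summed to 242 to 258 CPM in DMSO and 284 to 294 CPM in fostamatinib, mostly from KRT19, which rose, while SOX9 fell, with a log2 fold change of -0.47 (limma, adjusted p = 1.59e-05), and KRT7 was not called (-0.48, adjusted p = 0.141). The 2 liver cancer markers AFP and GPC3 summed to 2000.4 to 2145 CPM in DMSO and 2519.6 to 2628 CPM in fostamatinib. The rise was not particular to hepatocyte markers. AFP (log2 fold change 0.31), GPC3 (0.63), PECAM1 (0.51) and the stromal PDGFRB (0.95) rose too, while LYZ, COL1A1 and COL3A1 were not called. The part of these shifts in the results that follow was not tested.

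Of the 34 enzyme genes, 26 were called changed, which means an adjusted p-value below 0.05 by limma fitted over all genes; of all 16305 genes, 47.8% were called. 14 of the 34 rose (23.3% of all genes were called higher) and 12 fell (24.5% were called lower). Of the 29 enzyme genes that averaged 50 reads or more in 1 group 25 were called, against 59.1% of all genes with that many reads. The samples of the 2 groups did not overlap for 27 of the 34 (54.1% of all genes). Changes of at least 2-fold were called for CPS1, HAL and OAT, which rose (3.85% of all genes rose that far), and for BCAT1, CTH, TDO2 and GCSH, which fell (3.29%). The median log2 fold change of the 34 was -0.044, beside 0.0015 for all genes, and their median absolute log2 fold change was 0.60, beside 0.27. The 11 enzymes without a row, OTC, GLS2, HPD, MAT1A, GNMT, SDS, SARDH, AMT, AGXT, PRODH and BCKDHA, were not analysed here, and all 11 belong to the catabolic class described next. The filter on low reads kept a gene that passed in either group: 30 of the 34 passed in both, ARG1, BHMT and TDO2 in DMSO alone and GPT in fostamatinib alone, so for these last 4 the filter itself favoured 1 direction. Levels per kilobase of transcript ran in DMSO from 0.170 CPM per kb for TAT to 163 CPM per kb for AHCY.

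**Figure D1:**
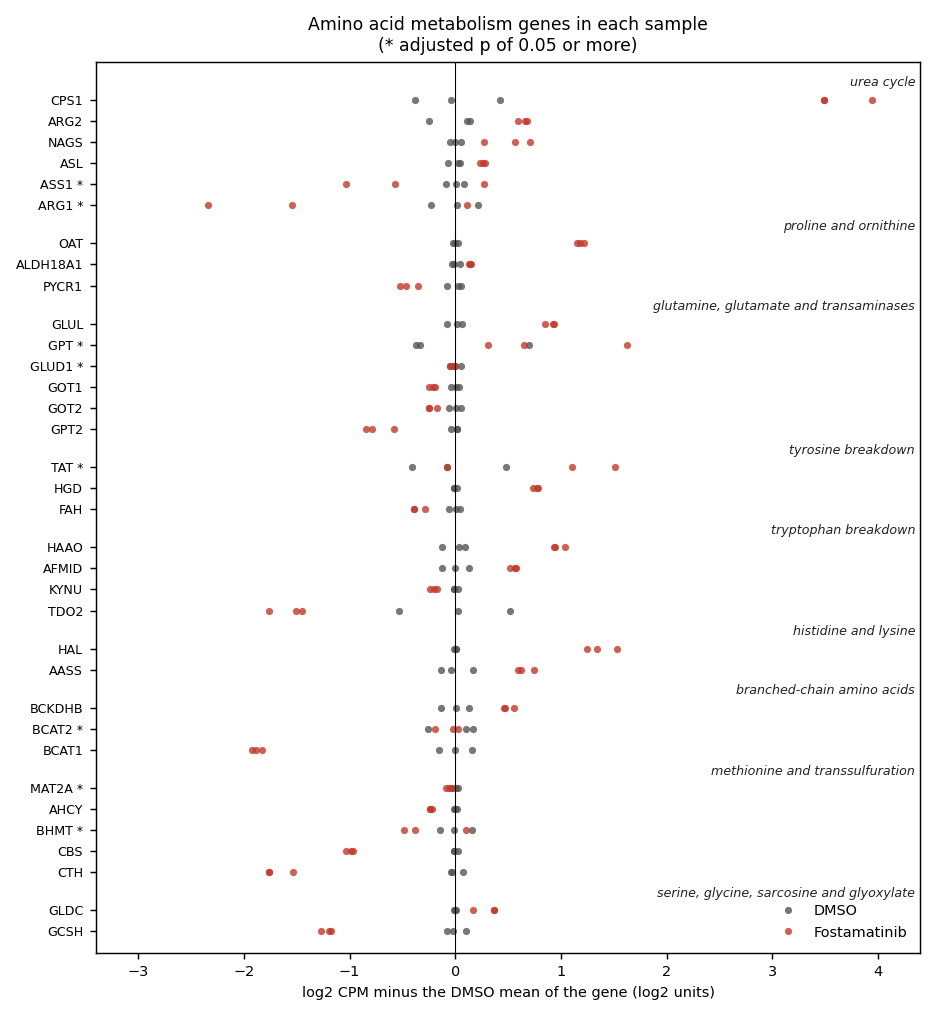
Each of the 34 enzyme genes by sample, as log2 CPM minus the mean of the 3 DMSO samples (horizontal axis, log2 units), grouped by pathway; grey points are DMSO samples, red points fostamatinib samples, and an asterisk marks the 8 genes with an adjusted p-value of 0.05 or more. The red points of CPS1 lie far to the right and those of BCAT1, CTH, TDO2 and GCSH to the left, with no overlap between the groups for 27 of the 34 genes.

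The comparison asked of the list was between catabolic enzymes of mature liver and biosynthetic enzymes. Of the 33 catabolic enzymes, 22 had values, of which 11 rose (23.3% of all genes), 5 fell (24.5%) and 6 were not called. Of the 5 biosynthetic enzymes, CTH, CBS, PYCR1 and GOT1 fell and ALDH18A1 rose. The median log2 fold change was 0.40 for the 22 catabolic enzymes (range -1.57 to 3.64) and -0.45 for the 5 biosynthetic enzymes (range -1.69 to 0.14), beside 0.0015 for all genes. Taken sample by sample, the median deviation from the DMSO mean was 0.27, 0.32 and 0.38 for the catabolic enzymes in the fostamatinib samples and -0.35, -0.47 and -0.53 for the biosynthetic enzymes. In the DMSO samples the same medians lay between -0.011 and 0.0054 for the catabolic and between -0.034 and 0.044 for the biosynthetic enzymes. Deviations were taken from the mean of these same DMSO samples, so small DMSO values follow from the calculation and are no independent baseline. The class medians stood apart in each of the 3 fostamatinib samples, which restates the fold changes sample by sample. Enzymes are not replicates of a class, and no test was made of this difference of 0.85 between the medians, which was 0.95 when a gene had to pass the read filter in both groups. The classes were not uniform, since the catabolic TDO2, GCSH, FAH, AHCY and KYNU fell. The largest falls of the biosynthetic class were those of CTH (-1.69) and CBS (-0.99). PYCR1, GOT1 and ALDH18A1 lay at -0.45, -0.22 and 0.14. The biosynthetic median, and with it the difference between the classes, thus depends on counting CTH and CBS as biosynthetic. Of the 7 enzymes in neither class, GLUL and ARG2 rose, BCAT1, GPT2 and GOT2 fell, and MAT2A and BCAT2 were not called.

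**Figure D2:**
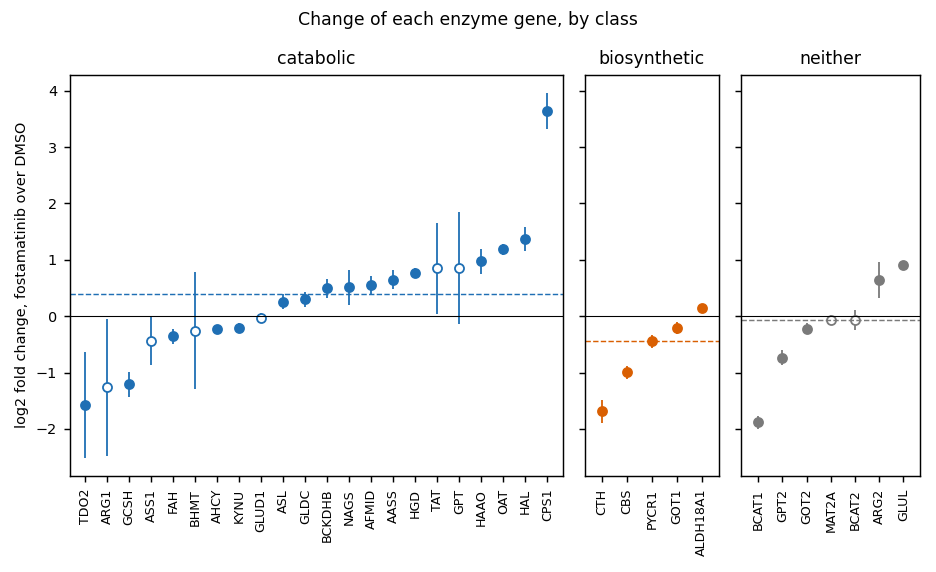
Log2 fold change of fostamatinib over DMSO (vertical axis) with its 95% confidence interval from limma for each enzyme gene, in the catabolic, biosynthetic and remaining classes; filled points were called at an adjusted p-value under 0.05, open points were not, and the dashed line is the class median. The medians are 0.40 for 22 catabolic and -0.45 for 5 biosynthetic enzymes, and catabolic values reach from -1.57 (TDO2) to 3.64 (CPS1).

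Promoters of the listed enzymes were searched for 3 motifs of factors known to control amino acid and liver genes. RefSeq promoters (GRCh38.p14, 250 bases before to 50 after a gene's start) were found for 38 of the 45 enzymes, 53 promoters in all, and 28 of the 38 have values in the files. The core of the amino acid response element bound by ATF4 and C/EBP factors, TGATGNAA on either strand, was found in 2 of the 53 and in 3.62% of all 35116 promoters. An HNF4 motif, CAAAGTCCA, was found in 1 of the 53 and in 0.384% of all promoters, and an HNF1 motif, GTTAATNAT, in none of the 53 and in 0.792% of all. The 3 matches are printed below, 5′ to 3′ on the strand of the gene with the motif in capitals and at most 60 bases on each side. They lie in GOT1 (chr10:99430755-99430874, minus strand, the reverse complement of the core, starting 198 bases before the gene), in 1 of the 5 promoters listed for BCAT1 (chr12:24949102-24949209, minus strand, 48 bases before) and in HAAO (chr2:42792636-42792764, minus strand, 121 bases before). CTH (chr1:70411148-70411267, plus strand) and HAL (chr12:95996345-95996464, minus strand) are shown as the biosynthetic enzyme that fell most and a catabolic enzyme that rose more than 2-fold, with none of the 3 motifs in the promoter searched and so no capitals.
GOT1: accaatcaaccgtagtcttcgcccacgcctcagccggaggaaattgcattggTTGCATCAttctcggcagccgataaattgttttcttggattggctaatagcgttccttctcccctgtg
BCAT1: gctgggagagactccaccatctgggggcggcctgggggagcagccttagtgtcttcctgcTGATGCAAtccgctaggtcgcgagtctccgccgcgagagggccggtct
HAAO: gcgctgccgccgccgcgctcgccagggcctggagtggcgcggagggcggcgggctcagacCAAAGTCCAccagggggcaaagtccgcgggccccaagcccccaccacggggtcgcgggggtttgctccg
CTH: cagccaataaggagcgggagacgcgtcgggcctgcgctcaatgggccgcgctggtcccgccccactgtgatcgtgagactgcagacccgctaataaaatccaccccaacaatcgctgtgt
HAL: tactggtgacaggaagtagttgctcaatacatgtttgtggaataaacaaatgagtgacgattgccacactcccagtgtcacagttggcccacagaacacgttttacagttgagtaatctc

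A match describes letters and no binding. The 2 genes with the response element core, GOT1 and BCAT1, both fell, and HAAO with the HNF4 motif rose. For the core, 2 of 53 promoters is close to the share of 3.62% among all promoters, and the HNF4 motif rests on 1 promoter. CTH, which fell, and HAL, which rose, had none of these motifs in the promoter searched. Whether a motif goes with a direction of change was not tested. The median GC content, averaged over the promoters of each gene, was 67.3% for 19 catabolic and 64.3% for 4 biosynthetic enzymes with values. The median of 58.7% for all promoters counts single promoters of any gene, expressed or not, so it is not a matched comparison.

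In the urea cycle, 4 of the 6 enzymes with values rose (23.3% of all genes did) and none fell past the threshold. CPS1 (chr2:211342406-211543831 in GRCh37, the build of all gene positions below), the mitochondrial enzyme that fixes ammonia as carbamoyl phosphate in the rate-limiting step, was at 1.92, 2.65 and 1.51 CPM in the DMSO samples and at 22.1, 30.3 and 22.2 CPM in the fostamatinib samples. These were 26, 40 and 22 reads against 304, 432 and 294 reads, and every fostamatinib sample lay far above every DMSO sample. The log2 fold change of CPS1 was 3.64 ± 0.16 (SE, limma, adjusted p = 6.11e-20), a ratio of 12.5, the largest of the 34 enzymes. NAGS, which makes the N-acetylglutamate that CPS1 needs as its activator, was at 4.75, 4.55 and 4.41 CPM in DMSO and 7.45, 5.51 and 6.75 CPM in fostamatinib. Its groups did not overlap, and NAGS rose by a log2 fold change of 0.51 ± 0.15 (SE, limma, adjusted p = 0.00505). ASL, which splits argininosuccinate into arginine and fumarate, went from 33.8, 34.2 and 31.7 CPM to 39.0, 39.8 and 40.3 CPM. This narrow shift, with no overlap, was a log2 fold change of 0.26 ± 0.064 (SE, limma, adjusted p = 0.000989). Another gene overlaps 9.34% of the exonic bases of ASL on its own strand. Of the 50-base stretches of ASL, 8.87% also occur in 86 other genes of the annotation, so part of its reads may be shared.

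ASS1 (chr9:133320348-133376661), which joins citrulline and aspartate, was at 4.68, 5.27 and 5.01 CPM in DMSO and at 2.44, 6.0 and 3.36 CPM in fostamatinib. Fostamatinib sample 2 lay above all DMSO samples and the other 2 below them, and the change of -0.45 ± 0.21 (SE, limma, adjusted p = 0.0786) was not called. Without fostamatinib sample 2 the log2 fold change of ASS1 was -0.80 (limma, adjusted p = 0.00138), so this library decided the call. ASS1 has many pseudogenes, and 5.61% of its 50-base stretches also occur in 13 other genes of the annotation, among which reads could be split. ARG1, the cytosolic arginase of hepatocytes that releases urea, had only 6, 8 and 9 reads in DMSO and 1, 8 and 2 reads in fostamatinib. Again fostamatinib sample 2 stood with the DMSO samples, and the log2 fold change of -1.26 ± 0.60 (SE, limma, adjusted p = 0.0816) was not called, while without that sample it was -1.94 (limma, adjusted p = 0.0156). Fostamatinib sample 2 also held the highest CPS1 value of the 6 samples. ARG2, the mitochondrial arginase found in many tissues outside the liver, was at 4.46, 4.55 and 3.47 CPM in DMSO and 6.22, 6.63 and 6.53 CPM in fostamatinib. All fostamatinib samples were higher, and ARG2 rose by a log2 fold change of 0.64 ± 0.15 (SE, limma, adjusted p = 0.000707). VTI1B covers 39.6% of the exonic bases of ARG2 on the opposite strand and was at 74.9 to 77.8 CPM in DMSO and 76.2 to 80.3 CPM in fostamatinib, a log2 fold change of 0.029 ± 0.050 (SE, limma, adjusted p = 0.661). The counting is not stated to use strand, so reads of these overlapping genes may not be separated.

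Proline and ornithine metabolism held the member with the lowest adjusted p-value after BCAT1. OAT (chr10:126085872-126107545), which links ornithine to glutamate and proline, was at 83.0, 81.8 and 84.9 CPM in DMSO and at 185, 194 and 189 CPM in fostamatinib. The samples within a group hardly differed, the groups lay far apart, and OAT rose by a log2 fold change of 1.18 ± 0.044 (SE, limma, adjusted p = 4.86e-22). Both biosynthetic enzymes of this pathway moved less, and in opposite directions. ALDH18A1, which turns glutamate into pyrroline-5-carboxylate, was at 159, 165 and 156 CPM in DMSO and 175, 177 and 178 CPM in fostamatinib. Its groups did not overlap, and the log2 fold change was 0.14 ± 0.041 (SE, limma, adjusted p = 0.00491), which was not called by limma without a mean-variance trend (adjusted p = 0.0515). PYCR1, the mitochondrial enzyme that completes proline, was at 85.7, 87.3 and 79.4 CPM in DMSO and 66.0, 60.9 and 58.4 CPM in fostamatinib. All fostamatinib samples were lower, with a log2 fold change of -0.45 ± 0.055 (SE, limma, adjusted p = 1.8e-08). Other genes overlap 14.1% of the exonic bases of PYCR1 on its own strand and 15.6% on the opposite strand, so part of its reads may be shared.

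Of the genes that handle glutamine, glutamate and alanine, GLUL rose and 3 aminotransferases fell, 4 of the 6 with values (47.8% of all genes were called). GLUL (chr1:182347233-182361341), the glutamine synthetase that captures ammonia in hepatocytes around the central vein, was at 156, 166 and 172 CPM in DMSO and at 313, 296 and 316 CPM in fostamatinib. The 3 fostamatinib samples all lay well above the DMSO samples, and GLUL rose by a log2 fold change of 0.90 ± 0.042 (SE, limma, adjusted p = 2.86e-19). GLUD1, the glutamate dehydrogenase that releases or fixes ammonia, was at 209.7, 219 and 203 CPM in DMSO and 207, 209.7 and 204 CPM in fostamatinib. Its groups overlapped, and the log2 fold change of -0.025 ± 0.041 (SE, limma, adjusted p = 0.649) was not called, with a 95% confidence interval of -0.11 to 0.060. GOT1, the cytosolic aspartate aminotransferase and a biosynthetic enzyme of the list, was at 70.4, 71.5 and 67.8 CPM in DMSO and 61.2, 58.8 and 60.5 CPM in fostamatinib, and fell by a small step without overlap at a log2 fold change of -0.22 ± 0.053 (SE, limma, adjusted p = 0.000831). GOT2, its mitochondrial isozyme, was at 98.5, 106 and 103 CPM in DMSO and 91.1, 86.3 and 86.5 CPM in fostamatinib, again with every fostamatinib sample lower at a log2 fold change of -0.22 ± 0.048 (SE, limma, adjusted p = 0.000253). GPT2, the mitochondrial alanine aminotransferase, was at 56.5, 56.4 and 54.3 CPM in DMSO and 32.4, 31.0 and 37.2 CPM in fostamatinib. This fall was larger than those of GOT1 and GOT2, with a log2 fold change of -0.74 ± 0.065 (SE, limma, adjusted p = 9.87e-12). GPT, the cytosolic isozyme measured in blood as a sign of liver damage, had 8, 4 and 4 reads in DMSO and 6, 8 and 15 reads in fostamatinib. At this depth its overlapping groups gave a log2 fold change of 0.86 ± 0.49 (SE, limma, adjusted p = 0.149), which was not called.

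**Figure D3:**
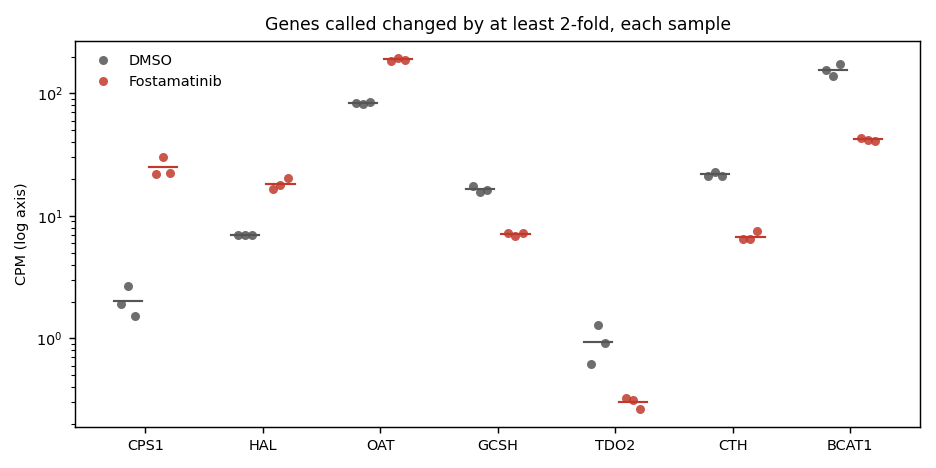
CPM (vertical log axis) in each sample for the 7 enzyme genes called changed by at least 2-fold; grey points are the 3 DMSO samples, red points the 3 fostamatinib samples and bars the means. CPS1, HAL and OAT lie higher and GCSH, TDO2, CTH and BCAT1 lower after fostamatinib, and TDO2 is near 1 CPM or below in all samples.

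Tyrosine breakdown moved in both directions. TAT, the aminotransferase that starts it and a hormone-induced gene of mature liver, had 8, 7 and 13 reads in DMSO and 8, 26 and 18 reads in fostamatinib, with overlapping groups. Its log2 fold change of 0.85 ± 0.40 (SE, limma, adjusted p = 0.0772) was not called, but was 1.31 (limma, adjusted p = 0.00753) without fostamatinib sample 1 and 1.09 (adjusted p = 0.0439 in limma) without DMSO sample 3. The call for TAT thus depended on which of these samples were used. HGD (chr3:120347019-120401116), the dioxygenase that opens the ring of homogentisate, was at 84.5, 82.7 and 82.8 CPM in DMSO and 138, 143 and 143 CPM in fostamatinib. The groups were tight and far apart, and HGD rose by a log2 fold change of 0.76 ± 0.045 (SE, limma, adjusted p = 2.53e-16). FAH, which catalyses the last step and is lost in hereditary tyrosinemia, was at 41.5, 42.6 and 39.7 CPM in DMSO and 33.8, 31.5 and 31.6 CPM in fostamatinib. In contrast to HGD it fell, without overlap, by a log2 fold change of -0.35 ± 0.064 (SE, limma, adjusted p = 1.96e-05).

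All 4 enzymes of tryptophan breakdown along the kynurenine route were called (47.8% of all genes were), 2 in each direction. TDO2 (chr4:156775890-156841558), the liver dioxygenase that opens tryptophan, had 8, 19 and 13 reads in DMSO and 4, 4 and 3 reads in fostamatinib. All fostamatinib samples lay below all DMSO samples, but the reads were few and TDO2 passed the filter in DMSO alone. Its log2 fold change of -1.57 ± 0.46 (SE, limma, adjusted p = 0.00512) became -1.31 (limma, adjusted p = 0.0524) without DMSO sample 2, so the call rested on that library. AFMID, the formamidase of the next step, was at 17.5, 16.1 and 14.7 CPM in DMSO and 22.9, 23.7 and 23.9 CPM in fostamatinib, and rose without overlap by a log2 fold change of 0.55 ± 0.084 (SE, limma, adjusted p = 1.23e-06). KYNU, the kynureninase, was at 239, 240.1 and 247 CPM in DMSO and 214, 210.4 and 205 CPM in fostamatinib. Every fostamatinib sample was slightly lower, with a log2 fold change of -0.21 ± 0.039 (SE, limma, adjusted p = 3.71e-05). HAAO (chr2:42994229-43019733), which turns 3-hydroxyanthranilate into the precursor of quinolinate and NAD, was at 7.37, 7.63 and 6.56 CPM in DMSO and 13.7, 13.8 and 14.8 CPM in fostamatinib. HAAO rose to 1.96 times its DMSO level, with a log2 fold change of 0.97 ± 0.11 (SE, limma, adjusted p = 3.57e-09).

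The enzymes that start histidine and lysine breakdown both rose (23.3% of all genes did). HAL (chr12:96366440-96390143), the histidine ammonia-lyase of liver and skin, was at 6.93, 7.04 and 7.03 CPM in DMSO and 16.6, 17.8 and 20.3 CPM in fostamatinib. The DMSO samples were nearly identical and all fostamatinib samples were far above them, a log2 fold change of 1.37 ± 0.11 (SE, limma, adjusted p = 3.09e-13). AASS, which carries out the opening steps of lysine breakdown in mitochondria, was at 19.3, 18.1 and 22.3 CPM in DMSO and 30.4, 33.1 and 29.8 CPM in fostamatinib. Its groups did not overlap, and it rose by a log2 fold change of 0.65 ± 0.08 (SE, limma, adjusted p = 2.02e-08).

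In branched-chain amino acid metabolism the largest fall of the whole set was found. BCAT1 (chr12:24962958-25102035), the cytosolic aminotransferase that is low in healthy liver and raised in many tumours, was at 155, 139 and 172 CPM in DMSO and at 43.5, 42.0 and 40.9 CPM in fostamatinib. Its 2133, 2125 and 2560 reads in DMSO against 598, 598 and 541 in fostamatinib left a wide gap between the groups, with a log2 fold change of -1.88 ± 0.058 (SE, limma, adjusted p = 2.36e-24), the lowest adjusted p-value of the 34 enzymes. BCAT2, the mitochondrial isozyme, was at 33, 31.5 and 24.5 CPM in DMSO and 29.0, 29.9 and 25.7 CPM in fostamatinib. These groups overlapped, and the log2 fold change of -0.063 ± 0.085 (SE, limma, adjusted p = 0.573) was not called. Without DMSO sample 3, the lowest of that group, it was -0.19 (limma, adjusted p = 0.0338). BCKDHB, a subunit of the dehydrogenase that commits the branched-chain keto acids to oxidation, was at 17.2, 18.6 and 15.6 CPM in DMSO and 23.5, 25.1 and 23.7 CPM in fostamatinib, and rose without overlap by a log2 fold change of 0.50 ± 0.084 (SE, limma, adjusted p = 6.24e-06).

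In methionine metabolism and transsulfuration 3 of 5 enzymes with values fell (24.5% of all genes did) and none rose, so that 3 of 5 were called where 47.8% of all genes and 59.1% of those with 50 reads or more were. CTH (chr1:70876901-70905534), the cystathionine gamma-lyase that releases cysteine, was at 21.2, 22.9 and 21.4 CPM in DMSO and at 6.43, 6.42 and 7.51 CPM in fostamatinib. All 3 fostamatinib samples were at about the same low level, and the log2 fold change was -1.69 ± 0.10 (SE, limma, adjusted p = 5.43e-16), the largest fall of the biosynthetic enzymes. CBS (chr21:44473301-44497053), which condenses serine with homocysteine in the step before, was at 64.7, 64.6 and 66.3 CPM in DMSO and 33, 33.3 and 32.0 CPM in fostamatinib. The replicates were tight and the groups far apart, with a log2 fold change of -0.99 ± 0.058 (SE, limma, adjusted p = 1.64e-16). CBSL, a near-identical copy, overlaps 36.8% of the exonic bases of CBS on the same strand in the annotation used here, so CBS is uncertain as a single gene. The row of CBSL was at 40.3, 43.2 and 30.3 CPM in DMSO and 26.9, 22.3 and 20.3 CPM in fostamatinib, also without overlap at a log2 fold change of -0.70 ± 0.096 (SE, limma, adjusted p = 1.39e-07). AHCY, which hydrolyses S-adenosylhomocysteine and had the highest level per kilobase of the set, was at 347, 349 and 356 CPM in DMSO and 301, 297 and 298 CPM in fostamatinib, a fall of all 3 samples at a log2 fold change of -0.23 ± 0.036 (SE, limma, adjusted p = 1.83e-06). MAT2A, the methionine adenosyltransferase of cells outside mature liver, was at 131, 126 and 129 CPM in DMSO and 123, 121 and 125 CPM in fostamatinib. Its groups just failed to overlap, yet the log2 fold change of -0.064 ± 0.044 (SE, limma, adjusted p = 0.243) was not called. On the opposite strand GGCX covers 12.5% of the exonic bases of MAT2A, and GGCX rose by a log2 fold change of 0.33 ± 0.050 (SE, limma, adjusted p = 6.82e-07). BHMT, which remethylates homocysteine with betaine in liver and kidney, had 5, 7 and 6 reads in DMSO and 6, 4 and 4 reads in fostamatinib, too few to show a difference at a log2 fold change of -0.25 ± 0.51 (SE, limma, adjusted p = 0.714).

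Of the glycine cleavage system of mitochondria, GLDC and GCSH had values and moved apart. GLDC, the decarboxylase, was at 30.9, 30.8 and 30.6 CPM in DMSO and 39.7, 39.7 and 34.6 CPM in fostamatinib, and rose by a log2 fold change of 0.30 ± 0.068 (SE, limma, adjusted p = 0.000377). GLDC shares 9.09% of its 50-base stretches with 24 other genes, so part of its reads may be shared too. GCSH (chr16:81115550-81130000), the carrier protein whose lipoyl group shuttles between the subunits, was at 17.6, 15.6 and 16.2 CPM in DMSO and 7.31, 6.84 and 7.21 CPM in fostamatinib. Every fostamatinib sample lay below the lowest DMSO sample, with a log2 fold change of -1.21 ± 0.11 (SE, limma, adjusted p = 7.93e-12). GCSH shares 12.5% of its 50-base stretches with 11 other genes, pseudogenes of it among them, so its level is uncertain.

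Isozymes of a reaction were compared within each sample, as the log2 CPM of the first minus that of the second, in 4 pairs with adjustment over the 4. With 3 samples against 3, the exact permutation test cannot give a p-value below 0.10, so no pair could pass 0.05. BCAT1 minus BCAT2 was 2.23, 2.15 and 2.81 in DMSO and 0.58, 0.49 and 0.67 in fostamatinib. The groups did not overlap, and the difference fell by 1.82 on the log2 scale (SE 0.22, exact two-sided permutation p = 0.1, adjusted p = 0.133). Per kilobase of 1 annotated transcript per gene (9314 bases for BCAT1, 1563 for BCAT2), BCAT1 and BCAT2 averaged 16.7 and 19.0 CPM per kb in DMSO. In fostamatinib they averaged 4.52 and 18.1 CPM per kb. On that scale the mitochondrial isozyme was close to the cytosolic in DMSO and 3.99 times as high after fostamatinib. In CPM, BCAT1 stayed the higher, with means of 155 against 29.7 in DMSO and 42.1 against 28.2 in fostamatinib. Which transcripts these cells use was not measured. GPT minus GPT2 was -6.52, -7.58 and -7.49 in DMSO and -6.10, -5.70 and -4.99 in fostamatinib. Here too the groups did not overlap, with a difference of 1.60 ± 0.47 (SE, exact two-sided permutation p = 0.1, adjusted p = 0.133), which rests on the few reads of GPT, and GPT2 was the higher by 63.0 times per kilobase in DMSO and 20.6 times in fostamatinib. For ARG1 minus ARG2 the values were -3.24, -3.03 and -2.44 in DMSO and -5.83, -3.47 and -5.11 in fostamatinib, a shift towards ARG2 of -1.90 ± 0.74 (SE, exact two-sided permutation p = 0.1, adjusted p = 0.133) that rests on the few reads of ARG1. GOT1 minus GOT2 was -0.49, -0.57 and -0.60 in DMSO and -0.57, -0.55 and -0.52 in fostamatinib. In this pair the groups overlapped, and the difference of 0.0048 ± 0.038 (SE, exact two-sided permutation p = 1, adjusted p = 1) was smaller than the spread within either group.

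**Figure D4:**
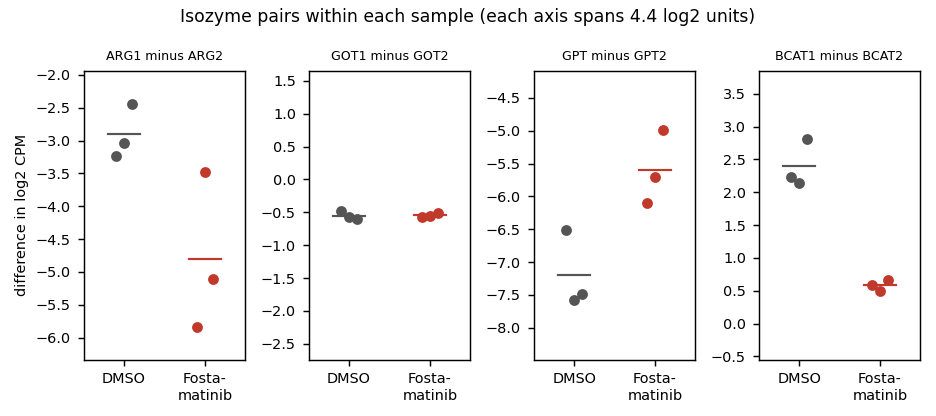
Difference in log2 CPM between 2 isozymes (vertical axis, each spanning 4.4 log2 units) in each DMSO sample (grey) and fostamatinib sample (red), with bars at the group means. The BCAT1 minus BCAT2 difference lies at 2.15 to 2.81 in DMSO and 0.49 to 0.67 in fostamatinib, whereas GOT1 minus GOT2 lies between -0.60 and -0.49 in all samples.

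A further 72 genes of the same pathways, listed by function, placed the enzymes in context. 61 of the 72 had values, and 41 of these were called (47.8% of all genes were), 27 higher and 14 lower, beside 59.1% called of all genes with 50 reads or more, with a median log2 fold change of 0.16. AGXT2, a mitochondrial aminotransferase of glyoxylate, had 1, 0 and 0 reads in DMSO and 10, 9 and 8 reads in fostamatinib. The summed 1 and 27 reads gave a ratio of 28.5, with an exact 95% counting interval of 4.70 to 1168 that covers counting error only. AGXT2 passed the read filter in fostamatinib alone, so the filter itself favoured this direction. CHDH, which oxidises choline to betaine aldehyde, rose by a log2 fold change of 1.70 ± 0.094 (SE, limma, adjusted p = 3.23e-17), and AMDHD1, which acts after HAL in histidine breakdown, by 1.2 ± 0.21 (SE, limma, adjusted p = 1.47e-05). ALDH6A1, the last dehydrogenase of valine breakdown, rose by a log2 fold change of 1.15 ± 0.085 (SE, limma, adjusted p = 9.78e-14). KMO, the hydroxylase between AFMID and KYNU in the kynurenine route, was at 4.32, 4.55 and 4.21 CPM in DMSO and 0.545, 0.877 and 0.717 CPM in fostamatinib. KMO fell furthest of these genes, with a log2 fold change of -2.64 ± 0.26 (SE, limma, adjusted p = 1.21e-10). The next falls were those of SQOR, which oxidises sulfide, with a log2 fold change of -0.67 ± 0.077 (SE, limma, adjusted p = 4.84e-09), and SLC25A12, an aspartate-glutamate carrier of mitochondria, of -0.61 ± 0.078 (SE, limma, adjusted p = 3.95e-08). MTRR, which reactivates methionine synthase, fell by a log2 fold change of -0.55 ± 0.077 (SE, limma, adjusted p = 2.17e-07).

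**Figure D5:**
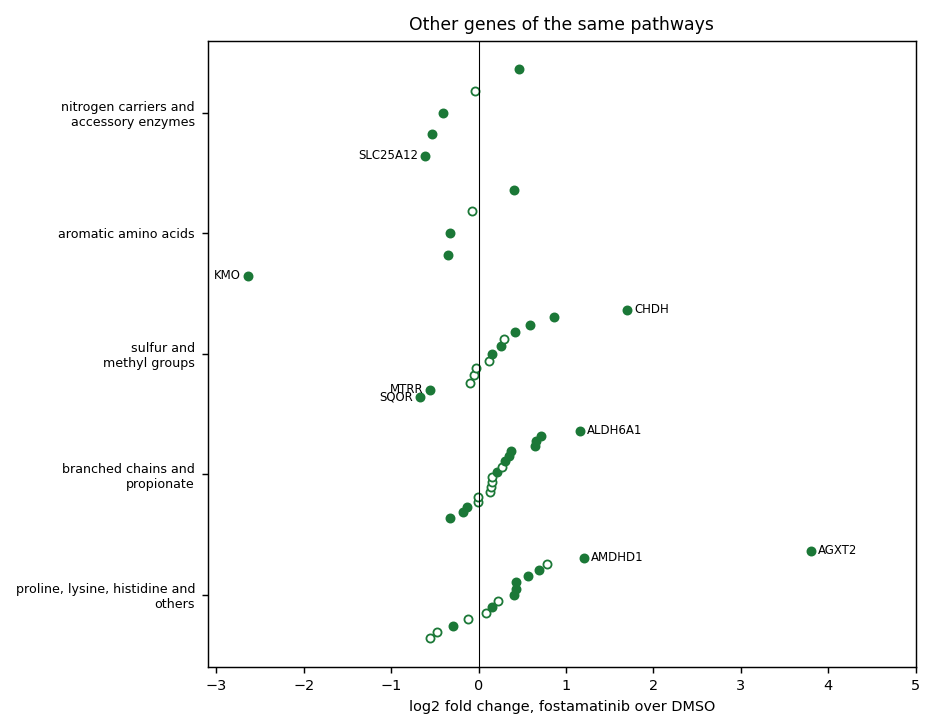
Log2 fold change of fostamatinib over DMSO (horizontal axis) for 56 of the 61 other pathway genes with values, by group; filled points were called at an adjusted p-value under 0.05 and open points were not. CHDH (1.70) and KMO (-2.64) lie far out, and the fitted value of AGXT2, to the right of them, depends on the 0.5 reads added to its counts of 0 and 1.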

How the data were processed

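RNA-seq of 3 DMSO and 3 fostamatinib samples of Huh7-R cells was analysed. Mapping (HISAT, hg19), counting (featureCounts, GENCODE annotation) and TMM scaling were done by the authors, who kept a gene only if 2 or more samples of a group reached 5 reads. The deposited values are log2 CPM with 0.5 added to each count, and whole reads were recovered from 100% of values within 0.05 of a whole number. Tool versions and the strand setting of the counting are not given in the sources used here.

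The fit used limma 3.58.1 in R 4.3.3 (lmFit, then eBayes with trend) on log2 CPM of all 16305 genes, with treatment as the only term and Benjamini-Hochberg adjustment. It pools the spread of other genes (median of 33.9 total degrees of freedom, 4 residual), on which very small p-values rest. The script was tested on simulated data. The addition of 0.5 understates fold changes of genes with few reads. Isozyme pairs were tested by exact permutation over samples. Coordinates, lengths and overlaps are from GRCh37 with GENCODE version 44 mapped to it, in which 98.7% of gene identifiers were found. Tables and plots used Python 3.11.15 with scipy 1.17.1 and matplotlib 3.10.9.

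The members and lists were chosen with earlier results of these data known. By rule all 34 members with values were named, with every sample printed for the biosynthetic, urea cycle and isozyme genes and those called at least 2-fold changed, and of the 72 further pathway genes the 5 largest called rises and falls, except that a few are left out of the text and 5 are left out of the plot. Sample values of the remaining members were added later. The 5th planned isozyme pair, MAT1A and MAT2A, was not tested, since MAT1A was not analysed here. Alternatives were limma-voom on recovered reads, eBayes without a trend, median-ratio and library-size scaling, 2 added reads, stricter read filters, a replicate block, a threshold of 0.01, the omission of each sample and, added after the data were seen, library size without mitochondrial genes.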

Additional observations from a re-analysis of the deposited data

How the results depend on the processing

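Total counts of called enzymes were stable. In the alternative runs 25 to 28 were called (26 of 34 as reported), 13 to 15 higher and 11 to 14 lower. All genes called ranged from 6216 to 7977. The stricter read filters took out enzymes with few reads, so their 25 calls were among fewer than 34 (30 where both groups had to pass). TDO2 lost its call there by removal and not by a test. Leaving out each sample in turn gave 25 to 28 called enzymes, 14 to 15 higher and 11 to 14 lower, 6958 to 7480 genes in all, and a difference between the catabolic and biosynthetic medians of 0.80 to 0.85. That difference was 0.95 when both groups had to pass the read filter, since ARG1, BHMT, TDO2 and GPT drop out. With each sample left out in turn, 11 to 12 catabolic enzymes were called higher and 4 to 7 lower. Without fostamatinib sample 2 these counts were 11 and 7, against 11 and 5 as reported, so the catabolic balance depended in part on that library. Without a mean-variance trend 0 biosynthetic enzymes were called higher by limma, because ALDH18A1 had an adjusted p of 0.0515, against 0.00491 with the trend. At an unadjusted threshold of 0.05 the same fit gave 1, and limma-voom called 1. BCAT2 changed sign without single samples (range -0.19 to 0.019), as did GLUD1 (-0.052 to 0.0048), and the GOT1 minus GOT2 difference (-0.019 to 0.038); none of the 3 was called as reported. Same-numbered samples correlated in their deviations from the group means by 0.036, -0.021 and 0.037 over 12249 genes. These values show no strong shared shift, but they cannot tell whether same-numbered samples were handled together. With the replicate block 27 enzymes were called, ASS1 being the addition (limma, -0.45, adjusted p = 0.0248). Of 501 values of single enzymes under alternatives, 490 kept their direction and their side of the threshold, 6 gained a call, 2 lost it and 3 reversed. The exact test of the isozyme pairs could not pass the threshold in any setting. ARG1, BHMT, GPT, TAT and TDO2 had at most 26 reads in any sample. Causes of these shifts beyond the filter were not tested.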

Other observations

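Beyond the rule for named genes, some further pathway genes are given here that were chosen after their values were seen, with log2 fold changes. The branched-chain and propionate group had values for all 19 of its genes, of which 9 rose and 3 fell in limma's test (median log2 fold change 0.21), so that 63.2% were called, close to the 59.1% of all genes with 50 reads or more. The risers included ACADSB, a dehydrogenase of isoleucine breakdown (0.72 ± 0.076 SE, limma adjusted p = 7.69e-10), and MUT, the methylmalonyl-CoA mutase (0.66 ± 0.071 SE, limma adjusted p = 8.23e-10). PCCB, a subunit of propionyl-CoA carboxylase, fell (-0.33 ± 0.072 SE, limma adjusted p = 0.000212), while its partner subunit PCCA rose (0.30 ± 0.094 SE, limma adjusted p = 0.00753). Of 14 sulfur and methyl-group genes 7 rose and 2 fell, a share of 64.3% called that is also close to 59.1%, with SUOX, the sulfite oxidase, at a log2 fold change of 0.87 ± 0.079 (SE, limma, adjusted p = 2.11e-11). Of the 6 nitrogen carriers and accessory enzymes with values 4 fell (24.5% of all genes did) and 1 rose (23.3%). SLC25A15, the ornithine carrier of the urea cycle, was at 11.2, 10.2 and 11.5 CPM in DMSO and 7.38, 7.75 and 7.58 CPM in fostamatinib and fell without overlap by a log2 fold change of -0.53 ± 0.11 (SE, limma, adjusted p = 0.000202), whereas CPS1 and NAGS rose.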
